A study of Vitis vinifera with 8 samples.

Results

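Galactinol synthase catalyses the committed step of the raffinose family of sugars: it joins galactose from UDP-galactose to myo-inositol and so makes galactinol, which then donates galactose to sucrose and raffinose. These sugars serve in plants as transported carbon and as protectants during drought, heat and cold, and in Arabidopsis separate gene copies respond to separate stresses. Galactinol and raffinose also build up in maturing seeds as they dry.

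Of the 34369 probes on the arrays, 4 stand for the galactinol synthase genes described here. They are VIT_05s0020g00330 and 3 copies of chromosome 14, VIT_14s0060g00760, VIT_14s0060g00790 and VIT_14s0060g00810, each with 1 probe. VIT_14s0060g00760 was listed as a galactinol synthase copy when the set was drawn up, but no table used here annotates it, and the other 3 are named galactinol synthase in the study's tables. The set was chosen by the rise of VIT_05s0020g00330 in leaves overexpressing VviNAC33, measured as the difference OXNAC33 minus Control on these arrays, so the group differences of these 4 genes are given as a description with no test. The question was whether the rise was shared by the copies, array by array and on each scan date. Another 4 galactinol synthase genes named in the study's tables were measured for comparison, of which VIT_14s0060g00800 was tabulated by the study from these same arrays, as was VIT_05s0020g00330.

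Leaves of in vitro plantlets of Vitis vinifera cv Sultana, 6 weeks old per the labels, were studied 7 days after vacuum infiltration with Agrobacterium tumefaciens strain C58C1 (the methods give a slightly lower age). The OXNAC33 group (4 arrays) carried 35S:VviNAC33, in which a viral promoter active in most cells drives the NAC transcription factor gene VviNAC33. The Control group (4 arrays) carried an empty pK7WG2 vector with a non-coding sequence, so both groups had been exposed to bacteria and vacuum. Of 8 plants infiltrated for overexpression, those with the most transgene transcript by quantitative PCR were kept, and 7 plants were infiltrated as controls. RNA came from pooled apical leaves of 1 plant per array, which the methods call well expanded. Transient infiltration reaches only part of the cells of a leaf, and a bulk sample cannot separate more expressing cells from more transcript per cell.

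All values below are levels on 1-colour arrays, given as a percentage of the 75th percentile of the probes on that array, which lay between 1370 and 2767 intensity units. On each array 73.8% to 84.1% of probes passed the feature extraction software's mark for a signal well above background. Control replicates 1 and 2 had 84.0% and 84.1%, with 75th percentiles of 2767 and 2250. OXNAC33 replicates 1 and 2 had 77.0% and 76.5%, with 75th percentiles of 1531 and 1421. Replicates 3 and 4 of both groups had 73.8% to 74.8%. Both groups were spread in the same way over 3 scan dates, with replicates 1 and 2 on date 1, replicate 3 on date 2 and replicate 4 on date 3. On dates 1 and 2 the groups lay on separate slides and only the replicate 4 arrays shared one, so within dates 1 and 2 group and slide cannot be told apart. The VviNAC33 probe read 222%, 150%, 91.8% and 45.7% in OXNAC33 replicates 1 to 4, against 110%, 59.4%, 45.3% and 38.8% in Control replicates 1 to 4, a log2 difference of 0.90 (limma adjusted p = 0.664, or 0.279 with the replicate number as a block). OXNAC33 replicates 3 and 4 lay inside the Control range, although each of the 4 OXNAC33 arrays was above the Control array of the same number. With the block, VviNAC33 passed the threshold of the methods, a 1.5-fold change with an unadjusted limma p under 0.05, and without it VviNAC33 did not. Whether this probe reads the introduced transcript is not given in the sources used here. The 5 light-harvesting and photosystem genes used as leaf markers were well above background on all 8 arrays. Their summed level was 5869% to 11567% in OXNAC33 and 11271% to 18292% in Control, and all 5 had a negative difference (median log2 -0.84). At the threshold of the methods 3 of the 5 were lower, as were 3.10% of all probes tested, and 2.42% of all probes were higher. With the replicate block 4 of the 5 were lower (4.96% of all probes lower and 3.91% higher). The part of this shift in the results below was not tested.

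VIT_05s0020g00330 was much higher in OXNAC33 leaves. It read 12.2%, 28.5%, 41.3% and 16.9% in OXNAC33 replicates 1 to 4, against 1.97%, 0.841%, 4.11% and 2.43% in Control replicates 1 to 4. The groups did not overlap: the lowest OXNAC33 array stood 2.97-fold above the highest Control array. On the log2 scale the mean level was -2.17 ± 0.78 in OXNAC33 and -5.63 ± 0.95 in Control (SD, n = 4 each), a difference of 3.46 or 11.0-fold, the 26th highest of the 26579 probes tested. With normexp background correction it was 1.98, or 3.95-fold, and the lowest OXNAC33 array was then only just above the highest Control array (log2 levels of -2.58 and -2.64). Of the 4 genes it was the only one with all OXNAC33 arrays above all Control arrays, a pattern found in 2.34% of all probes tested. Because this count uses the contrast that chose the gene, nothing is read from it. OXNAC33 replicate 4, the lowest of its group in VviNAC33, was 2.80 above Control replicate 4 of the same scan date on the log2 scale, and without that array the difference was 3.59.

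**Figure D1:**
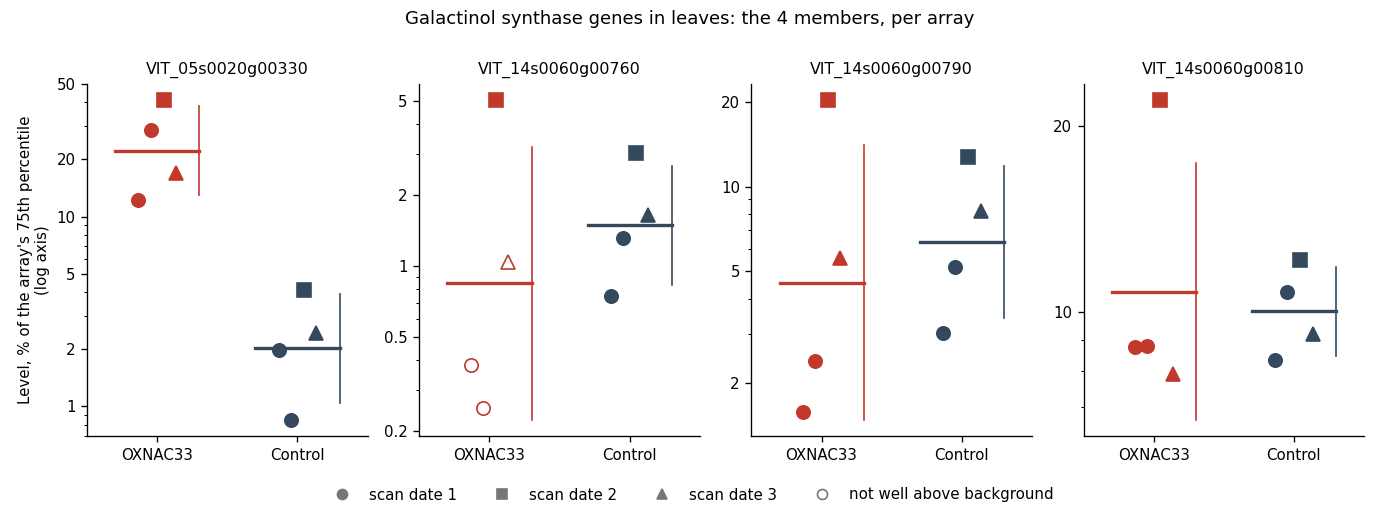
Level of the 4 galactinol synthase genes on each array as a percentage of the 75th percentile of the array (log axis, scaled separately in each panel), for OXNAC33 and Control; symbols give the scan date, open symbols mark arrays not well above background, thick lines are means of log2 levels and thin lines 1 SD (n = 4). The OXNAC33 arrays of VIT_05s0020g00330 (12.2% to 41.3%) lie above all its Control arrays (0.841% to 4.11%), while the groups overlap for the 3 chromosome 14 genes.

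The 3 chromosome 14 copies did not show this difference, and the groups overlapped for each. VIT_14s0060g00760 read 0.384%, 0.252%, 5.08% and 1.04% in OXNAC33 replicates 1 to 4, against 0.750%, 1.32%, 3.04% and 1.65% in Control replicates 1 to 4. It was well above background on 1 of 4 OXNAC33 arrays, replicate 3, and on 4 of 4 Control arrays. On date 1 this mark was reached at lower log2 levels in Control (lowest -7.97 and -7.57) than in OXNAC33 (lowest -6.83 and -6.88). The gene passed in Control replicate 1 at -7.06, below both of those OXNAC33 levels. Its mean log2 level was -6.89 ± 1.93 in OXNAC33 and -6.07 ± 0.83 in Control (SD, n = 4 each), a difference of -0.82 that rests on the 3 OXNAC33 values not well above background. OXNAC33 replicates 1 and 2 were then raised to the lowest signal well above background on their array. Replicate 4 (-6.58) already exceeded that of its own array (-6.78) and was left as it was. The means became -6.15 ± 1.24 in OXNAC33 and -6.07 ± 0.83 in Control (SD, n = 4 each) and the difference was -0.08.

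VIT_14s0060g00790 read 1.59%, 2.40%, 20.3% and 5.57% in OXNAC33 replicates 1 to 4, against 3.01%, 5.17%, 12.8% and 8.19% in Control replicates 1 to 4, well above background on all of them. The OXNAC33 group held both the 2 lowest arrays and the highest one. The difference of the means was -0.48 (-4.46 ± 1.62 in OXNAC33 and -3.98 ± 0.89 in Control, SD, n = 4 each), and it turned to 0.03 without OXNAC33 replicate 1.

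VIT_14s0060g00810 was the steadiest of the 4 genes in Control leaves. It read 8.78%, 8.78%, 22.1% and 7.92% in OXNAC33 replicates 1 to 4, against 8.36%, 10.8%, 12.2% and 9.20% in Control replicates 1 to 4. OXNAC33 replicates 1, 2 and 4 lay close to the Control arrays, and OXNAC33 replicate 3 stood apart. The difference was 0.11 (-3.22 ± 0.69 in OXNAC33 and -3.32 ± 0.24 in Control, SD, n = 4 each) and became -0.24 without OXNAC33 replicate 3.

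The difference of VIT_05s0020g00330 was present on each scan date, with log2 values of 3.86 on date 1 (2 arrays per group), 3.33 on date 2 and 2.80 on date 3 (1 array per group each). VIT_14s0060g00790 differed by -1.02, 0.67 and -0.56 on dates 1 to 3, and VIT_14s0060g00810 by -0.11, 0.86 and -0.22. Both were thus higher in OXNAC33 on date 2 and lower on dates 1 and 3. VIT_14s0060g00760 was higher by 0.74 on date 2, where both arrays were well above background. Its values of -1.68 on date 1 and -0.66 on date 3 use OXNAC33 arrays not well above background. With the date 1 arrays raised as before, the date 1 value was -0.21. The date 3 value stayed at -0.66, since OXNAC33 replicate 4 was not raised. The date 2 values rest on replicate 3 of each group.

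**Figure D2:**
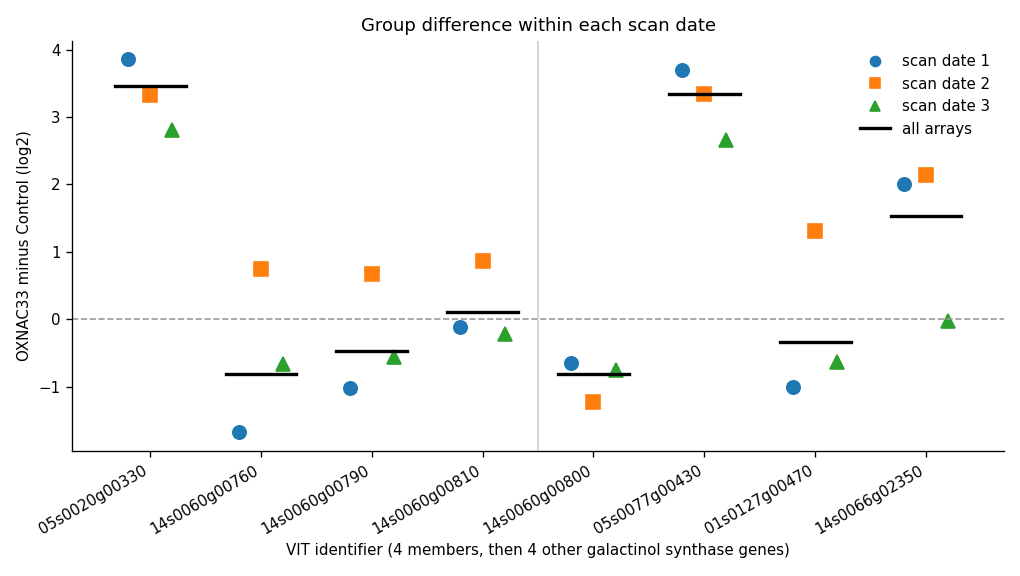
Log2 difference OXNAC33 minus Control on each scan date (symbols) and over all arrays (black line) for the 4 genes and, right of the vertical line, the other 4 galactinol synthase genes; date 1 has 2 arrays per group, dates 2 and 3 have 1. VIT_05s0020g00330 stays between 2.80 and 3.86 and VIT_05s0077g00430 between 2.66 and 3.69, whereas the 3 chromosome 14 members cross zero; the date 1 and date 3 values of VIT_14s0060g00760 use arrays not well above background.

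Scan date was not used to choose the genes and could be tested. In a limma fit with group and scan date, the F-test of date gave an adjusted p of 0.0431 for VIT_14s0060g00790, and 2023 of the 26579 probes (7.61%) passed at 0.05. The other 3 genes did not pass, with adjusted p of 0.0594 for VIT_14s0060g00760, 0.136 for VIT_14s0060g00810 and 0.205 for VIT_05s0020g00330 from the same limma fit. All 4 arrays of dates 2 and 3 read VIT_14s0060g00790 at 5.57% or more and all 4 arrays of date 1 at 5.17% or less. Its log2 level on the later dates exceeded that on date 1 by 2.45 in OXNAC33 and by 1.37 in Control. The call was lost with all probes tested (adjusted p = 0.0666) and with normexp background correction (adjusted p = 0.119). The dates hold different plants as well as different scans, and these cannot be told apart.

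Across the 8 arrays, VIT_14s0060g00760 and VIT_14s0060g00790 followed each other closely, with a Pearson r of 0.96 over all arrays and of 0.96 after removing the group means. The values of VIT_14s0060g00760 include the 3 arrays not well above background. VIT_14s0060g00810 had r = 0.76 with VIT_14s0060g00760 and also with VIT_14s0060g00790. VIT_05s0020g00330 had r of -0.09, 0.06 and 0.31 with VIT_14s0060g00760, VIT_14s0060g00790 and VIT_14s0060g00810, which became 0.50, 0.63 and 0.51 within groups. These points are the same 8 RNA samples, so each r also carries whatever the arrays share. Probes with r of at least 0.95 numbered 12 for VIT_05s0020g00330, 15 for VIT_14s0060g00760, 82 for VIT_14s0060g00790 and 2 for VIT_14s0060g00810, of 26465 others compared.

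The probe most like VIT_05s0020g00330 over the 8 arrays was another galactinol synthase, VIT_05s0077g00430 (r = 0.99). The 8 arrays fell in the same order for both genes, and r was 0.95 within groups. The next 4 were VIT_04s0008g00480, a pentatricopeptide repeat protein (r = 0.98), VIT_04s0023g01900, an AAA-type ATPase (r = 0.97), VIT_08s0032g01230, a DEAH box polypeptide (r = 0.97), and VIT_12s0059g01270, a DMT family transporter (r = 0.97). Their own differences were small, between 0.26 and 0.39 on the log2 scale, against 3.34 for VIT_05s0077g00430.

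**Figure D3:**
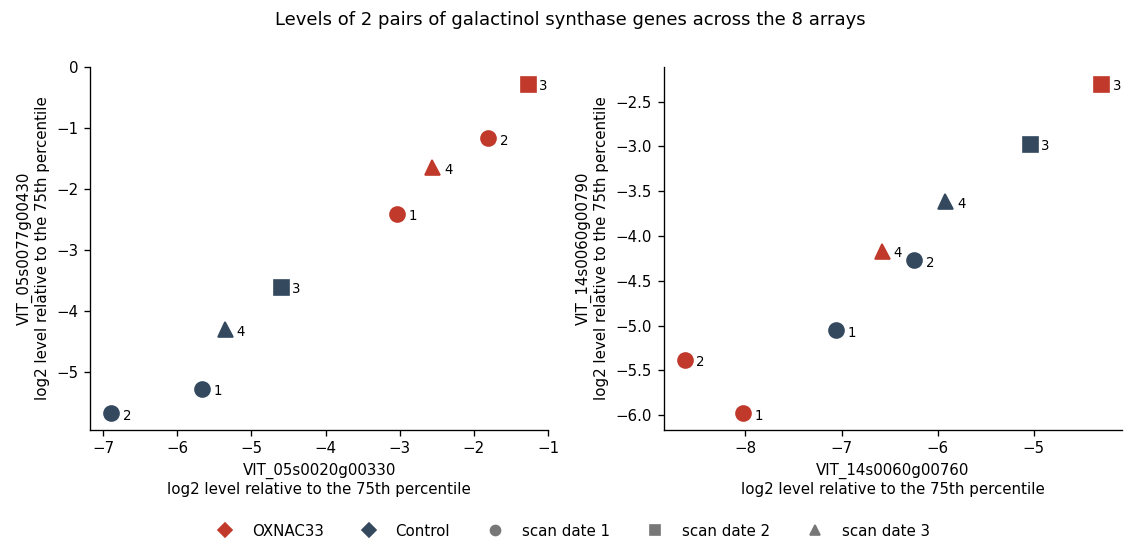
Log2 level relative to the 75th percentile on each of the 8 arrays for VIT_05s0077g00430 against VIT_05s0020g00330 (left) and VIT_14s0060g00790 against VIT_14s0060g00760 (right); colours give the group, symbols the scan date and numbers the replicate. The left pair separates OXNAC33 from Control along 1 line (r = 0.99), and the right pair is ordered largely by scan date with the groups mixed (r = 0.96).

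VIT_05s0077g00430 was not among the 4 genes and was tested. Because its levels followed those of VIT_05s0020g00330 (r = 0.99), this test is not independent of the choice of the set. It read 18.9%, 44.9%, 83.2% and 32.1% in OXNAC33 replicates 1 to 4, against 2.59%, 1.96%, 8.24% and 5.09% in Control replicates 1 to 4. The groups did not overlap, and the lowest OXNAC33 array was 2.29-fold above the highest Control array. The difference was 3.34 (SE 0.56), or 10.2-fold, 30th highest of all probes tested, and it was 3.69, 3.33 and 2.66 on dates 1 to 3. With normexp background correction it was 2.40, or 5.29-fold. The limma p was 0.000301 before and 0.500 after Benjamini-Hochberg adjustment, so it did not pass over all genes, nor with scan date as a block (adjusted p = 0.115) or with the replicate number as a block (adjusted p = 0.133). Over all 26579 probes, 0 passed in either direction (lowest limma adjusted p = 0.392), while 2071 (7.79%) had an unadjusted p under 0.05. VIT_05s0077g00430 passed when arrays were weighted by their fit (adjusted p = 0.0394), a setting that gave OXNAC33 replicate 2 a weight of 13.0 and the other arrays 0.359 to 1.40.

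VIT_14s0060g00800 lay on the other side. It read 1.42%, 1.39%, 0.970% and 1.82% in OXNAC33 replicates 1 to 4, against 1.99%, 2.44%, 2.26% and 3.05% in Control replicates 1 to 4. All OXNAC33 arrays were below all Control arrays, as in 1.75% of all probes, and the margin was narrow. The difference was -0.82 (SE 0.23), negative on dates 1 to 3 (-0.65, -1.22 and -0.75), with a limma p of 0.00688 and an adjusted p of 0.633. It passed with array weights (adjusted p = 0.0464). The study tabulated this copy from these arrays, so its direction is not independent evidence.

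The last 2 galactinol synthase genes had groups that overlapped. VIT_01s0127g00470 read 247%, 2160%, 5609% and 2558% in OXNAC33 replicates 1 to 4, against 1658%, 1299%, 2273% and 3957% in Control replicates 1 to 4, and OXNAC33 held both the lowest and the highest array. The difference was -0.34 (SE 0.88, limma adjusted p = 0.927) and became 0.58 without OXNAC33 replicate 1.

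VIT_14s0066g02350 read 67.0%, 13.0%, 9.78% and 8.42% in OXNAC33 replicates 1 to 4, against 7.64%, 7.11%, 2.23% and 8.55% in Control replicates 1 to 4. OXNAC33 replicate 1 was far above the rest, and replicate 4 was just below the highest Control array. The difference was 1.53 (SE 0.71, limma adjusted p = 0.637), with 2.00, 2.13 and -0.02 on dates 1 to 3, and was 0.85 without OXNAC33 replicate 1 and 0.88 with slide as a random block. It was higher in 3 of 4 same-numbered pairs and passed the threshold of the methods with the replicate block (limma adjusted p = 0.374).

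**Figure D4:**
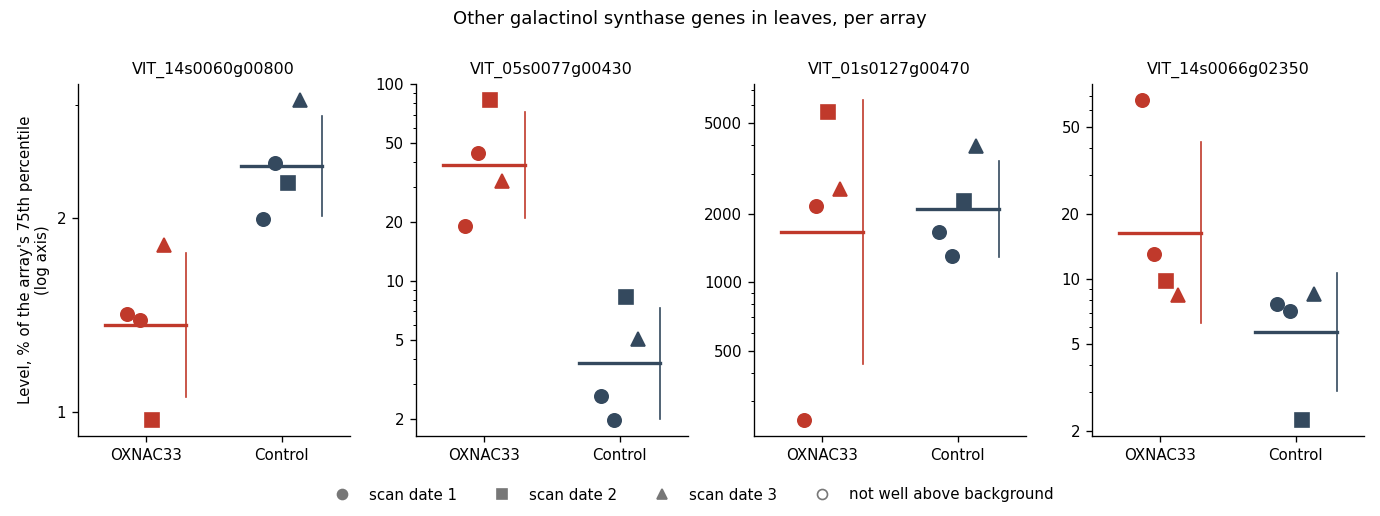
Level of the other 4 galactinol synthase genes on each array as a percentage of the 75th percentile of the array (log axis, scaled separately in each panel), for OXNAC33 and Control; symbols give the scan date, thick lines are means of log2 levels and thin lines 1 SD (n = 4). VIT_05s0077g00430 lies at 18.9% to 83.2% in OXNAC33 and 1.96% to 8.24% in Control, VIT_14s0060g00800 is slightly lower in OXNAC33, and the groups of the other pair overlap.

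Of the 8 genes, VIT_14s0060g00760 included, 2 had all OXNAC33 arrays above all Control arrays, 1 had all below and 5 overlapped. Over all probes tested, 2.34% were above and 1.75% below. The count includes VIT_05s0020g00330, chosen by this contrast, and VIT_14s0060g00800, tabulated by the study from these arrays, so nothing is read from it. The counts were the same without OXNAC33 replicate 3 (background 5.92% above and 4.02% below). Without OXNAC33 replicate 4, VIT_14s0066g02350 joined the first 2, against a background that itself widened to 6.22% of probes above and 5.32% below. A difference of the size seen in VIT_05s0020g00330 was thus measured in 1 other copy, VIT_05s0077g00430, and in none of the chromosome 14 members. Whether the copies differ in their response was not tested. The sources used here do not give the probe sequences, so a probe that also binds a near-identical copy cannot be told apart from copies with parallel levels.

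The identifiers between and next to the chromosome 14 copies gave 3 more probes, VIT_14s0060g00770 among the copies and VIT_14s0060g00750 and VIT_14s0060g00820 on either side, none with a gene name in the sources used here. VIT_14s0060g00770 had r = 0.99 with VIT_14s0060g00790 and 0.91 with VIT_14s0060g00760. It read 1.12%, 2.80%, 26.04% and 7.87% in OXNAC33 replicates 1 to 4, against 2.54%, 6.49%, 14.8% and 10.2% in Control replicates 1 to 4, a difference of -0.49 (SE 0.96, limma adjusted p = 0.899). It shared with VIT_14s0060g00790 the lower levels on date 1 and the high replicate 3 in both groups. VIT_14s0060g00750 differed by 0.23 and VIT_14s0060g00820 by -0.18, with groups that overlapped, and VIT_14s0060g00820 passed the test of scan date (limma adjusted p = 0.0374).

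Some of the enzymes around galactinol synthase were higher in OXNAC33 at the threshold of the methods, and none after adjustment. Of 10 raffinose pathway genes 9 were tested (galactokinase-like VIT_11s0065g00240 was too dim), and 2 were higher and 0 lower, where 2.42% of all probes were higher and 3.10% lower. With the replicate block 3 were higher and 0 lower (3.91% and 4.96% of all probes), the added gene being the myo-inositol oxygenase VIT_09s0002g02940. The counts were 2 and 0 without OXNAC33 replicate 4 (4.10% and 5.11% of all probes) and 3 and 0 without OXNAC33 replicate 3 (4.82% and 3.25%). The median log2 difference was 0.26, beside 0.04 over all probes tested. Of these 10 genes, 4 were tabulated by the study from these arrays, among them both that were higher without the block. None of the 10 was named raffinose synthase, so the list held no gene by that name for the step from galactinol to raffinose.

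Among the users of galactinol, the stachyose synthase VIT_07s0005g01680 read 160%, 166%, 90.2% and 129% in OXNAC33 replicates 1 to 4, against 74.1%, 54.4%, 95.8% and 88.0% in Control replicates 1 to 4. The difference was 0.80 (SE 0.26, limma adjusted p = 0.633), but -0.09 on date 2. The stachyose synthase precursors VIT_17s0000g09670 and VIT_00s0878g00020 differed by 0.40 and -0.07. VIT_00s0878g00020 passed the test of scan date (limma adjusted p = 0.0313), with 189% and 355% on date 1 in OXNAC33 and 259% and 334% in Control, beside 866% to 1034% on the later dates over both groups.

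Of the alpha-galactosidases, which remove galactose from these sugars, VIT_13s0019g01150 had all OXNAC33 arrays above all Control arrays, as did 2.34% of all probes. The study tabulated this gene from these arrays. It read 71.9%, 85.2%, 63.6% and 54.2% in OXNAC33 replicates 1 to 4, against 45.8%, 29.3%, 30.8% and 38.4% in Control replicates 1 to 4, a difference of 0.94 (SE 0.21, limma adjusted p = 0.622). VIT_01s0137g00630 was slightly lower on every OXNAC33 array (65.6% to 75.2%, against 78.5% to 87.4% in Control), a difference of -0.22. Such a separation downward was found in 1.75% of all probes.

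Of the genes that supply or divert the substrates, the UDP-glucose 4-epimerases VIT_02s0025g01560 and VIT_02s0025g04210, which make UDP-galactose, differed by 0.26 and 0.11, and the galactokinase VIT_11s0078g00420, which phosphorylates free galactose, by -0.35. The myo-inositol oxygenase VIT_09s0002g02940, which takes inositol out of this route, had the widest range of the list. It read 242%, 180%, 7.28% and 38.2% in OXNAC33 replicates 1 to 4, against 38.8%, 40.1%, 5.74% and 8.24% in Control replicates 1 to 4. It was higher in OXNAC33 on each date (2.40, 0.34 and 2.21), with an overall difference of 1.84 (SE 1.17, limma adjusted p = 0.684, or 0.253 with the replicate block), and was higher in 4 of 4 same-numbered pairs. In both groups it was lower on the later dates than on date 1 (limma adjusted p for scan date 0.0281).

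Other protectant genes gave no difference of this size. Of 6 dehydrins and late embryogenesis abundant proteins, which shield cells during water loss, 4 were tested (median 0.33). At the threshold of the methods 0 passed in either direction, where 2.42% of all probes were higher and 3.10% lower. The 3 with the largest differences were the late embryogenesis abundant protein 5 gene VIT_07s0005g00660 (0.52), VvDHN2 VIT_18s0001g00360 (0.48) and VIT_02s0025g02550 (-0.19). For the first 2 the difference was positive on dates 1 and 2 and negative on date 3.

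Of 19 heat shock factors and proteins 16 were tested, and 2 were higher and 0 lower at the threshold of the methods, where 2.42% of all probes were higher and 3.10% lower (median 0.17). With the replicate block 3 were higher and 0 lower (3.91% and 4.96% of all probes). The counts were 2 and 0 without OXNAC33 replicate 4 (4.10% and 5.11% of all probes) and 1 and 0 without OXNAC33 replicate 3 (4.82% and 3.25%). Of the 19, 4 were tabulated by the study from these arrays. All OXNAC33 arrays were above all Control arrays for 2 of the 16 and below for 0, beside 2.34% and 1.75% of all probes. A heat shock factor gene with a difference of only 0.28 was 1 of these 2. The other was the small chloroplast chaperone gene VIT_16s0098g01060 (heat shock protein 26a). It read 30.3%, 26.1%, 19.2% and 23.7% in OXNAC33 replicates 1 to 4, against 11.4%, 12.9%, 11.4% and 6.56% in Control replicates 1 to 4. Its difference was 1.26 (limma adjusted p = 0.554), that of the heat shock factor B3 gene VIT_08s0007g08750 was 1.06 (adjusted p = 0.638) and that of the chaperone gene VIT_11s0037g00510 (heat shock protein 70) was 0.75 (adjusted p = 0.633), all from limma. No gene of these lists had a difference as large as the 3.46 of VIT_05s0020g00330 or the 3.34 of VIT_05s0077g00430.

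**Figure D5:**
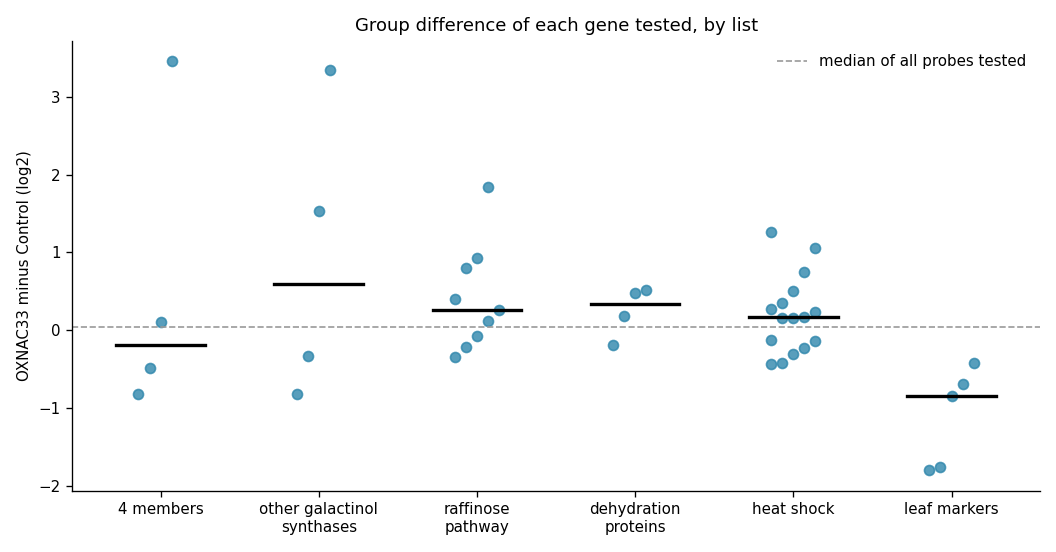
Log2 difference OXNAC33 minus Control of each gene tested (points) in 6 lists, with the median of each list (black line) and of all probes tested (dashed line, 0.04). Apart from 1 member at 3.46 and 1 other galactinol synthase at 3.34, which stand above all others, the points of the raffinose pathway, dehydration and heat shock lists lie between -0.43 and 1.84, and all 5 leaf markers are below zero.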

How the data were processed

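Per the file headers, the authors extracted each 1-colour array with Agilent Feature Extraction 10.5.1.1, and the deposited value of a spot is a background-subtracted processed intensity on a linear scale. The authors also deposited a table of scaled intensity, used here as an alternative. Feature extraction and statistics are credited by the methods to an earlier publication, not used here.

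Outlying spots (140 by the extraction software's marks) were dropped, and 0 were saturated. Each processed intensity was divided by its array's 75th percentile and taken to log2. Testing was limited to the 26579 of 34369 probes that were well above background on at least 4 of 8 arrays. The main comparison was a two-group fit in limma 3.58.1 (R 4.3.3) without covariates, two-sided, with Benjamini-Hochberg adjustment over all probes. A second count used the threshold of the methods, a 1.5-fold change with an unadjusted p under 0.05, with the limma p in place of their t-test. Scan date was tested by a limma F-test beside group. The scripts were tested on simulated data. The number of arrays limits the precision. Groups and replicate numbers came from the sample titles.

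Same-numbered arrays of the groups deviated together to differing degrees (r of 0.490, 0.253, 0.496 and 0.102 for replicates 1 to 4, across probes). As all were over 0.1, the replicate number was used as a block in an alternative to the unpaired main comparison. The sample titles give replicate numbers but no pairing of plants. The best match of OXNAC33 replicates 1 to 4 was Control replicate 1, 1, 4 and 3, so only replicate 1 matched its own number best. Same-numbered arrays also share a scan date. With the replicate block the counts were 1040 higher and 1318 lower, against 644 and 824 without it.

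The members, gene lists and tests were chosen with earlier results of these data known. Named are the 4 members, all other galactinol synthase and raffinose pathway genes of the study's tables, 3 genes each of the dehydration and heat shock lists by size of difference, the chromosome 14 neighbours and the 5 probes most like VIT_05s0020g00330. Only names and membership were taken from the study's tables. As 0 array identifiers matched the reference table, no coordinates or sequences are given. Normexp used the median spot signal in place of the planned mean signal. Alternatives covered background, scaling, filters, blocks, array weights, the methods' t-test and leaving out arrays; the lists without OXNAC33 replicate 3 or 4 or with the replicate block, and dim values raised within scan dates, were added after seeing the data.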

Additional observations from a re-analysis of the deposited data

Results flagged for a closer look

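With 4 arrays in a group, 38 groups of values were examined for 1 array far from the others, of which chance alone gives about 1 in 20, and 3 were found. For VIT_14s0060g00810, OXNAC33 replicate 3 had a log2 level of -2.18, and the other 3 OXNAC33 arrays lay between -3.66 and -3.51 (gap over range 0.899). For VIT_14s0066g02350, Control replicate 3 had -5.49, and the other Control arrays lay between -3.81 and -3.55 (gap over range 0.862). For VIT_17s0000g09670, a stachyose synthase precursor, Control replicate 3 had -0.68, and the other Control arrays lay between -1.24 and -1.17 (gap over range 0.886). All 3 are arrays of scan date 2, but not every gene reported here was examined in this way. The late embryogenesis abundant protein 5 gene VIT_07s0005g00660, for example, was at 6.47 in OXNAC33 replicate 4, of date 3. Its other OXNAC33 arrays lay between 6.98 and 7.07.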

How the results depend on the processing

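VIT_05s0020g00330 kept its direction in all 13 alternatives, between 1.98 (normexp) and 3.83 (array weights). VIT_14s0060g00760 did so in all 13, between -2.27 (array weights) and -0.08 (dim values raised). The array weights gave 13.0 to OXNAC33 replicate 2, where VIT_14s0060g00760 was not well above background. On date 2, where both arrays were well above background, it was higher in OXNAC33 by 0.74. VIT_14s0060g00810 turned to -0.013 with normexp and to -0.155 with array weights. VIT_05s0077g00430 and VIT_14s0060g00800 kept their direction in all 19 alternatives, with limma adjusted p from 0.0394 to 0.998 and from 0.0464 to 0.998; both passed with array weights only.

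Leaving out 1 array at a time gave 3.04 to 3.80 for VIT_05s0020g00330, -1.68 to -0.24 for VIT_14s0060g00760, -1.20 (without OXNAC33 replicate 3) to 0.028 (without OXNAC33 replicate 1) for VIT_14s0060g00790, -0.239 (without OXNAC33 replicate 3) to 0.253 for VIT_14s0060g00810 and -0.92 to 0.58 for VIT_01s0127g00470. Over all probes it gave 0 to 2 higher after adjustment (0 lower throughout), and at the threshold of the methods 330 to 1280 higher and 525 to 1358 lower, beside 644 and 824 with all arrays.

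At that threshold normexp gave 293 higher and 644 lower, so that 68.7% of the calls were lower, beside 56.1% in the main comparison, and array weights gave 2898 higher and 2250 lower (43.7% lower), with 456 higher and 493 lower after adjustment. The replicate block gave 1040 higher and 1318 lower, with 2 higher after adjustment, and it changed no call of the other galactinol synthase genes at an adjusted p of 0.05, though VIT_14s0066g02350 passed the threshold of the methods with it. The scan date block gave 1035 and 1372, and the methods' t-test 417 and 512, with 0 after adjustment. Scan date itself was called for 2023 probes, for 495 with all probes tested and for 1 with normexp. The causes were not tested. Quantile scaling, the authors' table, the stricter filter and the random slide block kept each count over all probes within 1.5 times, but the slide block gave 0.88 for VIT_14s0066g02350, beside 1.53. Probes near background, such as VIT_14s0060g00760, are the least certain.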
